A study of Drosophila melanogaster with 16 samples.

Results

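The microRNA (miRNA) genes of *Drosophila* were taken as every annotated gene whose symbol begins with *mir-*, which includes *bantam* (*mir-ban*) and *let-7* (*mir-let7*). There were 262 such genes, of which 260 lay on the 6 chromosome arms 2L, 2R, 3L, 3R, 4 and X and 2, copies of *mir-10404*, lay on a ribosomal DNA contig that was left out. Binding near them was read from Targeted DamID (TaDa) peak lists made from wing imaginal discs of female larvae, the larval tissue that becomes the adult wing and part of the thorax. In TaDa, a bacterial adenine methylase (Dam) is fused to a protein of interest, and GATC sites close to where that protein contacts the genome become methylated. The fusions were Psi-Dam, Myc-Dam and Pol-Dam, with 3 samples each. Psi is the FUBP family protein of flies, Myc is a growth-promoting transcription factor, and Pol-Dam carries Polr2F (RpII18), a subunit common to the RNA polymerases, referred to as RNA Pol. Each was compared with Dam alone, for which there were 7 samples. All of these flies, Dam-only animals included, expressed the transgene through UAS from the *scalloped*-GAL4 driver with temperature-sensitive GAL80, so the profiles come from cells in which *scalloped* (*sd*) is active. After egg lays of up to 4 h at 25°C, larvae spent 7 days at 18°C, where GAL80 blocks the driver, and the fusions were switched on by 24 h at 29°C. Dam-only sample 1 served Psi samples 1 and 3 and also RNA Pol sample 1, so the Psi and RNA Pol lists are not independent of each other, whereas Myc had Dam-only samples of its own.

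The deposited lists held 1710 Psi peaks, 1568 RNA Pol peaks and 1951 Myc peaks that passed a false discovery rate (FDR) of 1%. Every peak began and ended at a GATC site, and median widths were 1555, 1793 and 1401 bp. The peak caller gave every peak a score and an FDR. Scores ran from 1.3 to 3.44 for Psi, from 0.76 to 2.87 for RNA Pol and from 0.42 to 7.81 for Myc, and they are used here only to rank a peak within its own list. The lists were called on the mean of 3 samples, so no value has a replicate error, no test between groups could be made, and the read depth behind a peak is not known. A region outside the lists is one that did not pass the FDR, which is not the same as a region without signal. A miRNA gene is called bound when its nearest base lies within 1 kb of a peak, the distance used in the study to assign peaks to genes.

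miRNAs are short RNAs that guide an Argonaute protein to messenger RNAs carrying a match to their seed, the bases 2 to 8 of the miRNA, and lower the output of those messages. They are cut from a hairpin, the pre-miRNA, within a longer primary transcript made by RNA polymerase II. That transcript may be a non-coding RNA of its own, may hold several hairpins in a cluster, or may be a protein-coding gene with the hairpin in an intron. In the wing disc, *bantam* is known for promoting growth and blocking cell death downstream of the Hippo pathway, *mir-9a* for keeping sensory organ numbers and the wing margin in order, and *mir-8* for tuning growth signals. The annotated hairpins were 50 to 174 bp long with a median of 92 bp. Such a hairpin is shorter than most GATC fragments, so TaDa reports on the chromatin around it rather than on the hairpin itself.

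Mature sequences of the miRNAs on which the results turn are given here as RNA, 5′ to 3′, as the RefSeq annotation of this assembly places them, with the seed in capitals. The first set holds products of some of the genes found in at least 2 of the lists, with *mir-13b-2*, which had the highest-scoring Myc peak of any miRNA gene. Products of *mir-8*, *mir-954*, *mir-9377* and *mir-4949*, also in at least 2 lists, are not shown.
bantam-3p: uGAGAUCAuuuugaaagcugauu
miR-9a-5p: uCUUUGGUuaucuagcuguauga
miR-279-3p: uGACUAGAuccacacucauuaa
miR-92b-3p: aAUUGCACuagucccggccugc
miR-282-5p: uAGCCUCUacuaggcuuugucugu
miR-275-3p: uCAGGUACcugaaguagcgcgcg
miR-305-5p: aUUGUACUucaucaggugcucug
miR-13b-3p: uAUCACAGccauuuugacgagu
The second set shares a seed with one of these but comes from another gene, and is shown because binding differed between genes of 1 seed.
miR-9b-5p: uCUUUGGUgauuuuagcuguaug
miR-9c-5p: uCUUUGGUauucuagcuguaga
miR-996-3p: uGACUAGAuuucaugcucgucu
miR-92a-3p: cAUUGCACuugucccggccuau
miR-306-5p: uCAGGUACuuagugacucucaa
miR-2a-3p: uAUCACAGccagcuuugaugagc

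Few miRNA genes lay at a significant peak. Psi peaks lay within 1 kb of 17 of the 260 genes (6.54%), RNA Pol peaks of 15 (5.77%) and Myc peaks of 15 (5.77%). Over all 23492 annotated features the same call was made for 6.78% with Psi, 11.0% with RNA Pol and 14.8% with Myc, so the share of miRNA genes was near the background for Psi and below it for RNA Pol and Myc. Features that are long are called more often. The bases of the 6 arms that lay within 1 kb of a peak made up 4.60%, 4.52% and 5.06% for the 3 lists, somewhat below the shares of miRNA genes. Other short RNA genes gave other shares. Of 269 snoRNA genes, which guide modification of other RNAs, 28.6% were bound by Psi, 17.1% by RNA Pol and 31.6% by Myc. Of 290 tRNA genes, which RNA polymerase III transcribes, 7.24% were bound by Psi, 44.8% by RNA Pol and 6.55% by Myc. A Psi peak lay within 1 kb of 21 tRNA genes but overlapped only 8 (2.76%), so most of these calls were peaks beside the gene. No test was made between these classes, because neighbouring genes share peaks. The paper states that it did not detect Psi at tRNA loci, which differs from the Psi calls given here. The source of that difference was not tested.

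Peaks overlapped the hairpin itself at 10 genes for Psi, 7 for RNA Pol and 11 for Myc, which is 3.85%, 2.69% and 4.23%. Of all features, 4.97%, 8.48% and 11.0% were overlapped, and of the arm bases 2.39%, 2.33% and 2.29% lay inside a peak. The shares of miRNA genes thus lay below those of all features and above those of bases. The median distance from a miRNA gene to the nearest peak was 46.2 kb for Psi, 28.3 kb for RNA Pol and 14.9 kb for Myc. Further out, the curves of miRNA genes and of arm bases parted most in the Myc list, where 57.7% of miRNA genes but 38.5% of bases lay within 20 kb of a peak. For Psi at the same distance the values were 34.6% of genes and 28.0% of bases, and for RNA Pol 40.4% and 32.5%.

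**Figure D1:**
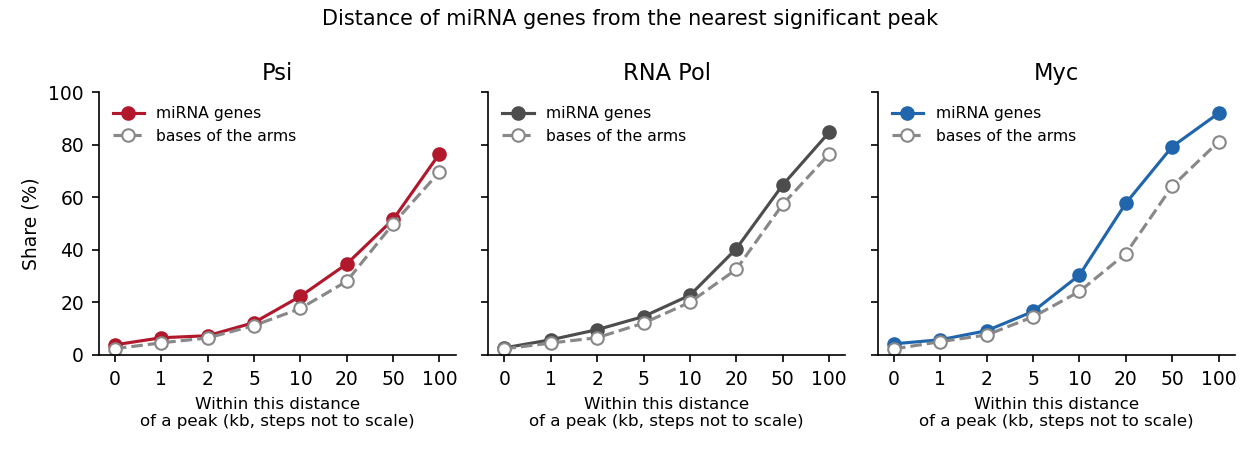
Share of the 260 miRNA genes (filled points) and of the bases of the 6 chromosome arms (open points, dashed) that lie within a given distance of a significant peak, in percent, for each list; the distance axis gives steps in kb that are not to scale, and 0 means that the peak overlaps the hairpin or base. Up to 5 kb the curve of miRNA genes runs a few percentage points or less above that of bases in each list. The curves part most, in percentage points, for Myc at 20 kb (57.7% against 38.5%).

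Across the lists, 30 miRNA genes (11.5%) at 27 genomic loci were bound by at least 1 protein, and 230 by none; of all features, 21.0% were bound by at least 1. Of the 30, 11 genes at 10 loci were bound by at least 2 proteins (4.23% of 260, against 8.82% of all features), and 6 by all 3 proteins (2.31%, against 2.83%). The 6 were *mir-ban*, *mir-279*, *mir-8*, *mir-954*, *mir-9377* and *mir-4949*. At an FDR of 0.1%, 4 of these kept all 3 proteins, *mir-8* losing RNA Pol and *mir-4949* losing Psi, and with peaks required to overlap the hairpin 3 did (*mir-279*, *mir-8* and *mir-954*). *mir-9a*, *mir-282* and *mir-92b* were bound by Psi and RNA Pol, and *mir-275* and *mir-305* by RNA Pol and Myc. The RNA Pol calls at *mir-92b*, *mir-275* and *mir-305* were lost both at an FDR of 0.1% and when overlap was required. Psi and RNA Pol thus had 9 miRNA genes in common, 3.46% of the 260, near the 3.89% of all features bound by both. The 9 were 52.9% of the Psi-bound and 60.0% of the RNA Pol-bound miRNA genes. Over all features, 913 were bound by both, of 1592 bound by Psi and 2589 bound by RNA Pol. These lists share a Dam-only sample, so their overlap is given as a count only.

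**Figure D2:**
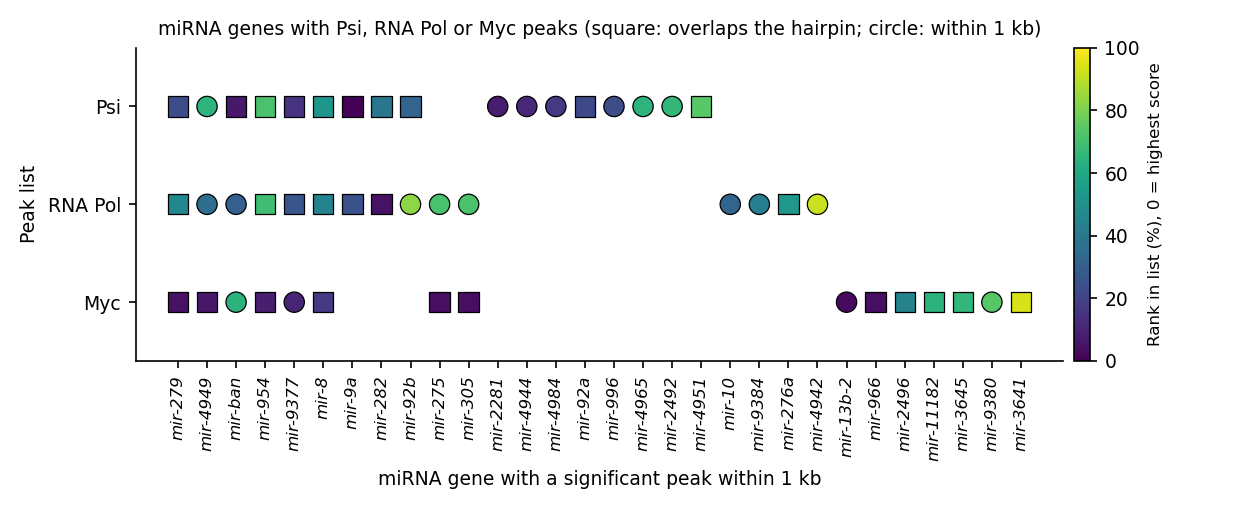
The 30 miRNA genes with a significant peak within 1 kb, in columns, and the 3 peak lists, in rows; a square marks a peak that overlaps the hairpin and a circle one that lies within 1 kb, and the colour gives the rank of the peak's score in its own list in percent, with 0 the highest score. The first 6 genes are bound by all 3 proteins, and the darkest Psi square is *mir-9a* (rank 9 of 1710).

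*bantam* was bound by all 3 proteins, but the 3 peaks did not cover the same ground. *mir-ban* (FBgn0262451) lies on the plus strand of 3L at 642208 to 642288 in BDGP6, in an exon of the non-coding RNA *lncRNA:CR43334*. The Psi peak ran from 638773 to 644267, 5.50 kb over 18 GATC fragments, and covered the hairpin with 3.44 kb upstream and 2.06 kb downstream of its 5′ end. Its score was 2.32, rank 113 of 1710, with an FDR of 9.19e-20. The RNA Pol peak (score 1.4, rank 470 of 1568) began 9 bases before the Psi peak but ended 230 bp upstream of the hairpin. The Myc peak (score 2.58, rank 1256 of 1951) lay within the RNA Pol peak and ended 305 bp upstream of the hairpin. The RNA Pol peak lay almost whole inside the Psi peak (99.7% of its bases), as did the Myc peak in full, and the stretch from the hairpin into the downstream flank was in the Psi list only. The annotated start of *lncRNA:CR43334* lies 13.8 kb upstream of the hairpin and was inside none of these peaks, with a different Psi peak 0.57 kb and a different RNA Pol peak 0.5 kb from it.

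The stretch between the end of the RNA Pol peak and the mature miRNA is shown because it was in the Psi list only and holds the GATC site at which the RNA Pol peak ended. It is the plus strand of 3L:641970-642269, from the last bases of the RNA Pol peak into the bantam-3p seed, with the 3 GATC sites and the single CACGTG in capitals.
bantam upstream region: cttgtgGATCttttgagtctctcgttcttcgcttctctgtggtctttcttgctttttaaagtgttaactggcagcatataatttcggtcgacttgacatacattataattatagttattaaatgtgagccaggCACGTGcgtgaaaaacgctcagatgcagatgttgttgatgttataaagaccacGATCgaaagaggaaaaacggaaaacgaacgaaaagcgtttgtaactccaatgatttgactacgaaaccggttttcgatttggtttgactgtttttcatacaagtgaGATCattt
The first GATC ends the RNA Pol peak. The CACGTG, the E-box hexamer that Myc is known to bind with its partner Max, begins 105 bp upstream of the hairpin, inside the Psi peak and outside the Myc and RNA Pol peaks. The last GATC is the bantam seed itself, so the mature miRNA holds GAUC within its seed GAGAUCA. In all, 59 of the 260 hairpins held a GATC and 25 of 481 annotated mature sequences a GAUC. Of the 59, 12 (20.3%) were bound by at least 1 protein, above the 11.5% of all 260 miRNA genes and near the 21.0% of all annotated features. Bound miRNA genes lay in shorter GATC fragments (median 358 bp over the 30) than the rest (median 562 bp over the 230). Whether the density of GATC sites bears on which genes reach the FDR was not tested.

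*mir-9a* had the strongest Psi peak of any miRNA gene. *mir-9a* (FBgn0262373) lies on the plus strand of 3L at 19565131 to 19565208, in an exon of *lncRNA:CR45916*. Its Psi peak, 3L:19561509-19569811, was 8.30 kb wide over 29 GATC fragments, with a score of 2.87, rank 9 of 1710, and an FDR of 3.85e-34. It held the start of *lncRNA:CR45916*, which lies 2.50 kb upstream of the hairpin, and also overlapped *Shal*, which encodes a potassium channel. The RNA Pol list held a peak of 2.32 kb over the hairpin with a score of 1.46 (rank 391 of 1568), wholly inside the Psi peak, and a second one that began 1.18 kb downstream with a score of 1.5. The nearest Myc peak lay 2.53 kb from the hairpin, outside the distance that counts as bound. A Myc peak did lie 0.04 kb from the start of *lncRNA:CR45916*, so that host RNA was bound by Myc.
The hairpins of *mir-9b* and *mir-9c*, whose products carry the same seed CUUUGGU, lie in a cluster of 4 miRNA genes with *mir-306* and *mir-79* in an intron of *grp*, the fly Chk1 kinase gene. None of these 4 was bound, and the nearest peaks lay 9.42 kb (Psi), 16.6 kb (RNA Pol) and 10.3 kb (Myc) from the cluster. Of the 3 genes with this seed, *mir-9a* was therefore the only one bound.

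*mir-279* and *mir-996* stand 1.5 kb apart in the non-coding RNA *lncRNA:CR31044* on the plus strand of 3R and carry the same seed, GACUAGA. Both are known for restraining the formation of carbon dioxide-sensing neurons and for targeting the JAK/STAT pathway. *mir-279* was overlapped by peaks of all 3 proteins: Psi with a score of 2.07 (rank 400 of 1710), RNA Pol with 1.26 (rank 733 of 1568) and Myc with 4.51 (rank 87 of 1951). Each of the 3 peaks also held the start of *lncRNA:CR31044*, 1.02 kb upstream of the *mir-279* hairpin. The Psi and Myc peaks began at the same base, and the Psi peak went on 925 bp beyond the Myc peak, to within 247 bp of *mir-996*. *mir-996* was thus bound by Psi alone, with the nearest Myc peak 1.17 kb and the nearest RNA Pol peak 1.42 kb upstream. The third gene with this seed, *mir-286*, sits in the cluster of *mir-309* on 2R and was bound by no protein.

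*mir-8* (16831432 to 16831518 on 2R) was overlapped by all 3 proteins. The scores were 1.81 for Psi (rank 901), 1.28 for RNA Pol (rank 702) and 3.88 for Myc (rank 322). The hairpin lies in an exon of *lncRNA:CR43650*, and the Myc peak, which reached 3.82 kb upstream, held the start of that RNA and overlapped the protein-coding gene *CG34460*. In the Psi and RNA Pol lists that start lay in a peak other than the one over the hairpin.

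*mir-275* and *mir-305* were bound strongly by Myc. They lie 79 bp apart on the plus strand of 2L, and *mir-275* is in an exon of *lncRNA:CR43857*. *mir-305* is known from the fly gut for a role in insulin and Notch signalling in stem cells. The Myc peak over both, 2L:7421228-7428170, was 6.94 kb wide over 22 GATC fragments with a score of 4.55 (rank 74 of 1951) and an FDR of 7.73e-19. A weaker RNA Pol peak (score 1.08, rank 1120 of 1568) lay wholly inside it and ended 247 bp upstream of *mir-275* and 424 bp upstream of *mir-305*. Both peaks held the start of *lncRNA:CR43857*, 1.98 kb upstream of *mir-275*. The Myc peak also held the start of the protein-coding gene *muc* and overlapped *chm*, so binding at the miRNA genes and at these genes cannot be told apart. The nearest Psi peak lay 52.1 kb away. miR-275-3p shares its seed, CAGGUAC, with miR-306-5p, whose gene was bound by no protein.

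*mir-282*, *mir-92a* and *mir-92b* were bound by Psi, and RNA Pol was found at 2 of the 3. *mir-282* (3L, in an exon of *lncRNA:CR43626*) lay under a Psi peak with a score of 1.92 (rank 669) that held the start of its host RNA 1.68 kb upstream. Its RNA Pol peak was the highest-scoring of any miRNA gene, 1.8 at rank 72 of 1568, and ran over 4.45 kb from near that start to 2.85 kb beyond the 5′ end of the hairpin. *mir-92a* and *mir-92b* lie 4.80 kb apart in *jigr1*, a gene for a DNA-binding protein expressed with them in neural progenitors, *mir-92a* in an intron and *mir-92b* in an exon. Each had a Psi peak of its own over the hairpin, with scores of 2.09 (rank 376) and 1.98 (rank 547). RNA Pol came within 1 kb of *mir-92b* only, with a score of 0.99 (rank 1302) at 85 bp, and its nearest peak to *mir-92a* began 1.76 kb downstream. The other 4 genes with their seed AUUGCAC, *mir-310* to *mir-313* on 2R, were bound by no protein, the nearest peak to that cluster being a Psi peak at 5.02 kb.

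The remaining 3 genes bound by all 3 proteins, *mir-954*, *mir-9377* and *mir-4949*, are little studied, and each lies at a protein-coding gene. *mir-954* on chromosome 4 lies in no annotated gene next to *mav*, which encodes a ligand of the TGF-beta family, and the peaks over it (Psi 1.64, RNA Pol 1.09, Myc 4.24) each held the start of *mav*. *mir-9377* lies in an intron of *Tis11*, which encodes a protein that speeds decay of messages with AU-rich elements. A Psi peak of 5.58 kb (score 2.17, rank 256) and an RNA Pol peak (score 1.44, rank 411) covered its hairpin, while the Myc list held a peak on either side, 517 bp upstream with a score of 2.8 and 490 bp downstream with a score of 4.13. *mir-4949* lies in *ATPsynC*, which encodes a subunit of the mitochondrial ATP synthase. There the Psi peak (score 1.69) and the RNA Pol peak (score 1.35) had the same ends, 73 bp downstream of the hairpin, and a Myc peak with a score of 4.39 (rank 116) covered both the hairpin and the starts of *ATPsynC* and its neighbour *CG12054*. At these 3 genes, binding at the miRNA and binding at the coding gene cannot be told apart.

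**Figure D3:**
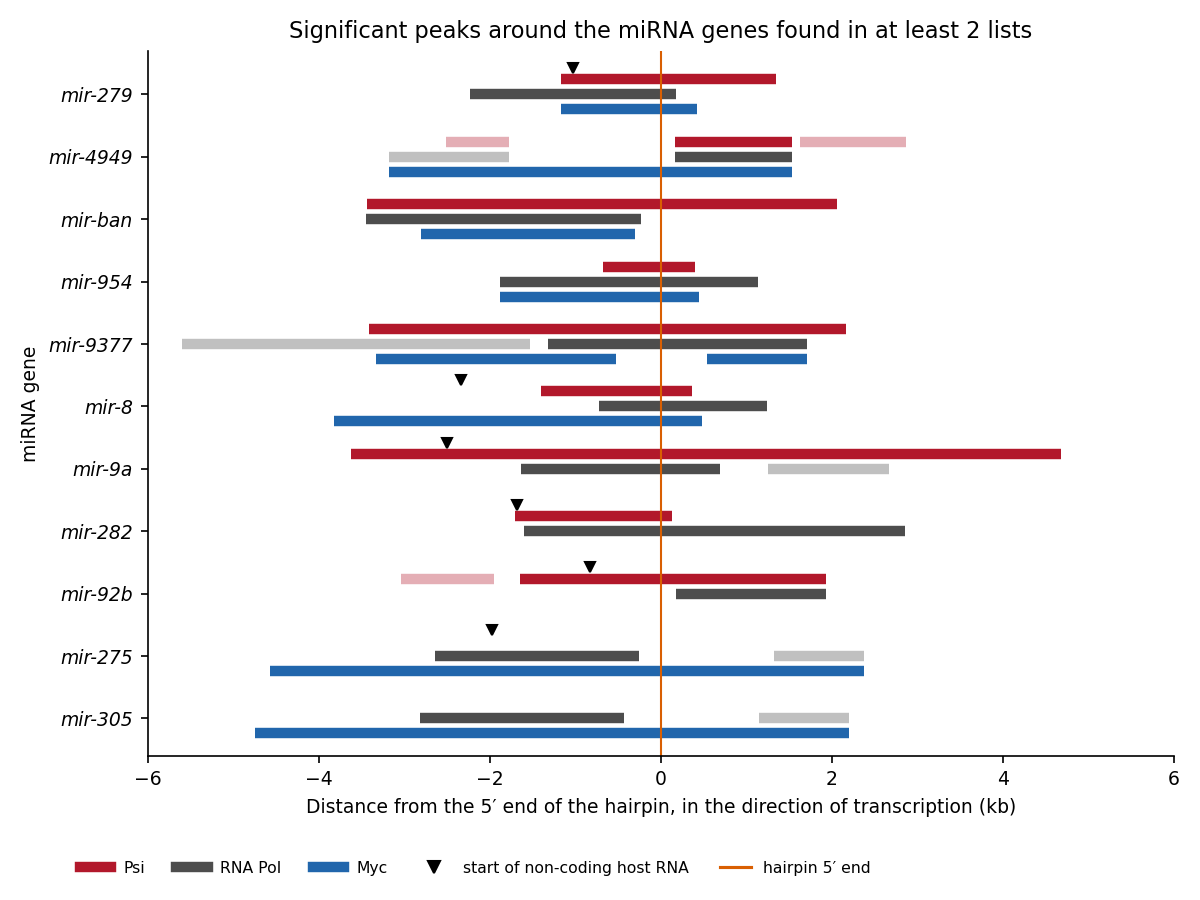
Significant peaks around the 11 miRNA genes found in at least 2 lists, as bars against the distance in kb from the 5′ end of the hairpin (vertical line), read in the direction of transcription; full colours are peaks within 1 kb of the hairpin, pale bars other peaks within 2 kb, and triangles the annotated start of a non-coding host RNA where it lies within 6 kb. At *mir-ban* the RNA Pol and Myc bars stop upstream of the hairpin and the Psi bar crosses it, and at *mir-279* all 3 bars cover both the host start and the hairpin.

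The 8 genes bound by Psi alone were *mir-92a*, *mir-996*, *mir-4944*, *mir-2281*, *mir-4951*, *mir-4965*, *mir-2492* and *mir-4984*. Apart from the first 2, described above, these lie inside long genes. *mir-2281* is in an intron of *cv-c*, a long RhoGAP gene, with a Psi peak of score 2.28 (rank 140) ending 876 bp upstream. *mir-4944* is in an intron of *hth*, a homeobox gene that specifies the wing hinge, with a score of 2.23 (rank 191) at 306 bp. *mir-4984* in *PAPLA1*, *mir-4965* in *Nup153* and *mir-2492* in *Drak* had scores of 2.15, 1.69 and 1.68, and *mir-4951* in *lncRNA:Hsromega*, the heat shock non-coding RNA that organises nuclear speckles, had 1.62. A gene start is here and elsewhere the outer 5′ end of a gene's annotation, so starts of transcripts inside a gene were not counted. In 7 of the 8 cases the Psi peak held no such start. The exception was *mir-996*, which shares the peak of *mir-279*. At an FDR of 0.1%, *mir-2281*, *mir-4965*, *mir-2492* and *mir-4984* lost their Psi call. With overlap of the hairpin required, these genes, *mir-4944* and *mir-996* lost it, and only *mir-92a* and *mir-4951* kept it.

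RNA Pol alone was found at *mir-10*, *mir-276a*, *mir-9384* and *mir-4942*. *mir-10*, a Hox cluster miRNA, had a peak with a score of 1.38 (rank 504) ending 730 bp upstream of its hairpin, which held the start of *lncRNA:CR45915*. The start of its host *lncRNA:CR42651*, 6.80 kb upstream of the hairpin, lay in a Myc peak. *mir-276a* lay under a peak of 3.19 kb with a score of 1.21 (rank 833), which ran from 2.91 kb upstream of the 5′ end of the hairpin to 0.28 kb downstream of it. *mir-276b*, which carries the same seeds and lies on the same strand of 3L, was not bound. *mir-9384* lies in *tacc* and *mir-4942* beside *alpha-Cat*, and their peaks (scores 1.3 and 0.9) held the starts of *atms* and *alpha-Cat*. The RNA Pol calls at *mir-10* and *mir-9384* were lost at an FDR of 0.1%. With overlap of the hairpin required, only *mir-276a* kept its call.

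Myc alone was found at 7 genes, and at 6 of them, all but *mir-3641*, the peak held the start of a protein-coding gene. *mir-13b-2*, in an intron of the chaperonin subunit gene *CCT2*, had the highest-scoring Myc peak among miRNA genes, 4.67 at rank 57 of 1951, which held the *CCT2* start and ended 868 bp upstream of the hairpin. *mir-966*, in an intron of the purine synthesis gene *Pfas*, lay under a Myc peak with a score of 4.57 (rank 70) that held the *Pfas* start. The others were *mir-2496* beside *east* (3.07), *mir-11182* at *nopo* (2.58), *mir-3645* in *Mlc-c* (2.52), *mir-9380* opposite *CG7352* (2.29) and *mir-3641* in *CG3630* (1.73). The Myc calls at *mir-3641* and *mir-9380* were lost at an FDR of 0.1%, and those at *mir-13b-2* and *mir-9380* when overlap was required. Of the 15 Myc peaks at miRNA genes, 13 overlapped a protein-coding gene and 11 held the start of an annotated gene. For Psi these were 11 and 5 of 16 peaks, and for RNA Pol 6 and 6 of 14.

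E-boxes were searched because Myc is known to bind the hexamer CACGTG, which reads the same on both strands. Of the 15 Myc peaks at miRNA genes, 8 (53.3%) held it within the 1001 bases at their centre, as did 21.5% of all 1951 Myc peaks and 11.3% of 1001-base windows along the 6 arms. In whole peaks, which differ in width, the counts were 10 of 15 (66.7%) and 28.9% of all Myc peaks. In the Psi list, 3 of the 16 peaks at miRNA genes and 9.53% of all peaks held one at the centre. In the RNA Pol list these were 0 of 14 and 9.82%. Whole peaks gave 5 of 16 (31.25%) and 15.7% for Psi, and 6 of 14 (42.9%) and 18.2% for RNA Pol. In each list the whole-peak share was thus higher at miRNA genes than over all its peaks, but the peaks at miRNA genes were also wider. Their median widths were 1707.5 bp for Psi, 2403 bp for RNA Pol and 1593 bp for Myc, against 1555, 1793 and 1401 bp over the lists. At the fixed central width the share was higher at miRNA genes for Psi and Myc and lower for RNA Pol. The part of width in the whole-peak shares was not tested. A match is a description of the sequence and no evidence of a site in use. The surroundings of some matches are given for the genes with the highest Myc scores, read on the plus strand with the hexamer in capitals.
mir-13b-2, 1467 bp upstream: acaggcggcttgCACGTGagccatggactc
mir-966, 226 bp upstream: ctgagcggagcaCACGTGcgtcttagctgc
mir-275, 826 bp upstream: atgtatagaaggCACGTGtgtgtctcagct
mir-279, 110 bp downstream of the hairpin 5′ end: tcaatcatcaagCACGTGttttcttgacaa
mir-4949, within the hairpin: accagaatggcaCACGTGtgtgtgtgcgag
The matches of *mir-13b-2* (X:9089763-9089768), *mir-966* (2L:6045934-6045939), *mir-275* (2L:7424969-7424974), *mir-279* (3R:29215695-29215700) and *mir-4949* (3R:31219329-31219334) all lay inside the Myc peak of the gene. At *mir-ban*, *mir-954*, *mir-11182* and *mir-9380* the Myc peak held none, and neither did the upstream peak of *mir-9377*.

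Of 31 miRNA genes listed for known roles in growth, patterning or cell death, or for their kinship with such genes, 7 (22.6%) were bound by at least 1 protein, near the 21.0% of all features, and 24 were bound by none. *mir-7*, an EGFR and Notch pathway miRNA in an intron of *HnRNP-K*, lay 4.26 kb from the nearest Psi peak and 5.21 kb from the nearest Myc peak. The developmental timing cluster of *mir-100*, *mir-let7* and *mir-125* was 6.39 kb from a Psi peak at its nearest hairpin. Its non-coding host, *lncRNA:let7C*, was itself bound by Psi and Myc. *mir-bft* (*mir-263a*), which protects sensory bristles, was the closest miss for Psi at 1.41 kb. Its non-coding host, *lncRNA:CR43314*, was itself bound by Psi, RNA Pol and Myc. *mir-263b* lay 3.55 kb from Psi and Myc peaks. The cell death regulator *mir-14* lay 1.54 kb from an RNA Pol peak. *mir-278*, *mir-184*, *mir-315* and *mir-965* were 17.7, 134.7, 36.4 and 19.6 kb from the nearest Psi peak. *mir-iab-4* and *mir-iab-8*, produced from opposite strands of 1 hairpin in the bithorax complex, were over 135 kb from any peak. *mir-34* and *mir-277*, which share a primary transcript with *mir-317*, lay 15.0 and 14.1 kb from peaks of Psi and RNA Pol.

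The seed AUCACAG of the *mir-2* family, which is known for repressing the cell death genes *rpr*, *grim* and *skl*, was carried by 14 genes: *mir-2a-1*, *mir-2a-2*, *mir-2b-1*, *mir-2b-2*, *mir-2c*, *mir-5*, *mir-6-1*, *mir-6-2*, *mir-6-3*, *mir-11*, *mir-13a*, *mir-13b-1*, *mir-13b-2* and *mir-308*. Of these only *mir-13b-2* was bound, by Myc. *mir-13b-1*, whose mature 3p sequence is the same, lay 9.49 kb from the nearest Myc peak. The *spi* cluster of *mir-2a-1*, *mir-2a-2* and *mir-2b-2* came close, at 1.16 kb from an RNA Pol peak and 1.26 kb from a Myc peak, both within *spi*, the EGFR ligand gene. *mir-11* in *E2f1* and *mir-308* in *RpS23* were at 5.12 kb (RNA Pol) and 2.56 kb (Myc) at their nearest. Of 33 seeds shared by at least 2 miRNA genes, 10 had a bound member, and in 2 of these, GACUAGA and AUUGCAC, there were 2 bound genes.

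miRNA genes were also grouped by the gene in which they lie, and are set beside the 21.0% of all features bound by at least 1 protein and the 8.82% bound by at least 2. Of 46 miRNA genes that lay only in a non-coding gene on their own strand, 10 (21.7%) were bound by at least 1 protein, which is near that background, and 6 by at least 2. Of 136 in a protein-coding gene on their own strand, 14 (10.3%) were bound by at least 1 protein, which is below it, and 3 by at least 2. By list, the genes with a non-coding host gave 7 for Psi (15.2%), 8 for RNA Pol (17.4%) and 4 for Myc (8.70%), and those with a coding host 9 (6.62%), 4 (2.94%) and 6 (4.41%). The 51 miRNA genes in no annotated gene gave 1, 3 and 4, and the 27 that only lay opposite a gene gave 0, 0 and 1. Over all features the 3 lists gave 6.78%, 11.0% and 14.8%. These shares describe the lists, and no test of their difference was made. The hairpins whose ends match those of an intron within 3 bases, as in mirtrons that are cut out by splicing and not by Drosha, numbered 34, of which Psi and RNA Pol bound 0 and Myc 2 (*mir-3641* and *mir-3645*).

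**Figure D4:**
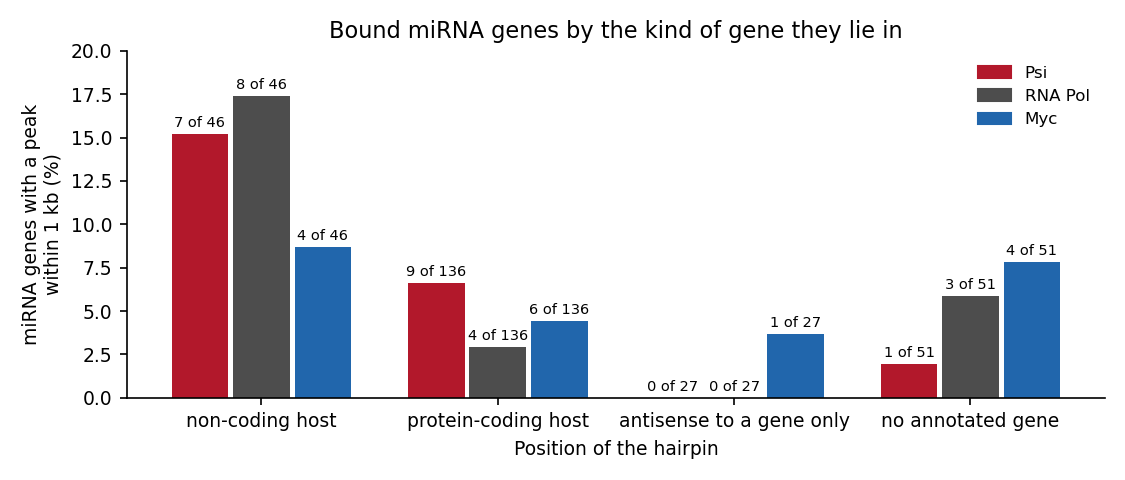
Percent of miRNA genes with a significant peak within 1 kb, by the kind of gene in which the hairpin lies (non-coding host, protein-coding host, only a gene on the opposite strand, or no annotated gene) and by list; numbers over the bars give the bound genes of all genes of that kind. The highest bars are those of RNA Pol (8 of 46) and Psi (7 of 46) at miRNA genes in a non-coding host.

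Calls were also made for the coding hosts themselves. Each host contains its hairpin, so it is bound wherever the hairpin is, and a higher count for hosts is no finding in itself. The 136 miRNA genes lay in 128 protein-coding hosts, of which 33 (25.8%) were bound by Psi, 35 (27.3%) by RNA Pol and 38 (29.7%) by Myc, against 7.92%, 13.6% and 19.2% of all protein-coding genes. The hosts are long, with a median of 14.1 kb against 2.17 kb for all protein-coding genes, and the part of length in these shares was not tested. With the host bound, the hairpin was not within 1 kb of a peak for 28 miRNA genes in the Psi list, 38 in the RNA Pol list and 40 in the Myc list. Examples were *mir-11* and *mir-998* in *E2f1*, the cell cycle transcription factor, and *mir-9b*, *mir-9c*, *mir-306* and *mir-79* in *grp*, where all 3 proteins bound the host and none the hairpins. *mir-7* in *HnRNP-K* and *mir-965* in the chromatin remodeller gene *kis* were in hosts bound by Psi and Myc but not RNA Pol. For *mir-308* the host *RpS23* was bound by none.

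Hairpins of 1 strand under 10 kb apart formed 22 clusters with 79 miRNA genes, and 6 of the 79 (7.59%) in 3 clusters (*mir-275* with *mir-305*, *mir-92a* with *mir-92b*, and *mir-279* with *mir-996*) were bound by at least 1 protein, and 24 of 181 single genes (13.3%) were. Both shares lay below the 21.0% of all features. None of the 11 clusters of more than 2 genes was bound, among them the X cluster of 12 genes from *mir-972* to *mir-979*, the cluster of *mir-309* and *mir-6* with 8 genes and that of *mir-310* with 7. Numbers in the symbols follow the order of discovery. Of 85 genes without a number or numbered below 400, 8 were bound by at least 2 proteins (9.41%), near the 8.82% of all features, and of 175 with a higher number 3 were (1.71%).

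Genes that make miRNAs and act with them were described from lists of 27 pathway genes, chosen with earlier results of these data known. Psi bound 6 of the 27, RNA Pol 8 and Myc 7 (22.2%, 29.6% and 25.9%), where all protein-coding genes gave 7.92%, 13.6% and 19.2%. In nuclear processing and export, *pasha*, which encodes the Drosha partner that recognises the hairpin, was bound by RNA Pol (score 1.13), *drosha* by Myc (2.06), and *Ars2*, *Cbp20*, *Cbp80* and *Ranbp21*, the fly Exportin-5, by none. Of the dicing and loading genes, *AGO1*, which encodes the Argonaute that holds most miRNAs, was bound by Psi (1.75), RNA Pol (1.24) and Myc (3.74), whereas *Dcr-1*, the miRNA Dicer gene, was bound by none and its partner *loqs* by RNA Pol (1.01). Of the chaperone genes used in loading, *Hsc70-4* and *Hsp83* were bound: *Hsc70-4* with Psi 2.29 (rank 134), RNA Pol 1.61 (rank 197) and Myc 5.15 (rank 15), and *Hsp83* with Psi 2.52 (rank 30). Of the effectors, *gw*, the GW182 gene, had a high-ranking RNA Pol peak (1.78, rank 77) and a Psi peak (1.59), and *Not1* and *Pop2* of the deadenylase complex were bound by none.

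Known targets of these miRNAs were described in the same way. Of 32 genes, Psi bound 20 (62.5%), RNA Pol 12 (37.5%) and Myc 12 (37.5%), where all protein-coding genes gave 7.92%, 13.6% and 19.2%. This list was chosen with earlier results of these data known, and it includes *Myc* and *stg*, which the paper reports as bound by Psi. The shares are therefore no independent support for binding at targets. Their median length was 17.2 kb, that of the pathway genes 4.52 kb, and the part of length in these counts was not tested. Of the *bantam* targets, *hid*, the cell death gene, had a Psi peak of score 2.47 (rank 41) and an RNA Pol peak of 1.39, *Socs36E* had 1.94 and 1.05, and *ena* had Psi alone (1.46). Of the *mir-9a* targets, *Bx*, which encodes the wing LIM-only protein, was bound by Psi (2.45, rank 48), RNA Pol (1.53) and Myc (3.91), and *sens* by Psi (1.46). The *mir-7* target *aop* and the *mir-278* target *ex* were bound by all 3 proteins, with Psi scores of 2.3 and 2.48. The *mir-2* targets *rpr*, *grim* and *skl* and the *mir-279* target *nerfin-1* were bound by none. The other listed *mir-279* target, *Stat92E*, was bound by Psi (1.41), RNA Pol (1.71, rank 122) and Myc (2.31). Of the genes for *bantam* regulators, *sd* and *hth* were bound by all 3 proteins (Psi 2.13 and 2.27), *tsh* by RNA Pol alone (1.08) and *yki* by none, *sd* being also the gene whose driver was used.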

How the data were processed

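Wing imaginal discs were profiled by TaDa with 3 samples for each Dam fusion (Psi, RNA Pol, Myc) and 7 with Dam alone, grouped by sample title. A further label that reads as RNAi or control disagrees with titles, design and paper and was not used. The authors aligned reads to BDGP6 (Bowtie2, named in the submitters' processing notes), took log2 ratios of each fusion over Dam alone per GATC fragment, and called peaks on the mean of 3 replicates. Program versions: not given in the sources used here. In the deposited lists each peak has a score, computed by the authors with no formula stated, and an FDR, at most 1%. Signal tracks were not analysed here.

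Gene models came from Ensembl release 115 (BDGP6 version 54), without 481 records of mature miRNAs. Hairpin coordinates matched RefSeq for 260 genes, and mature sequences and positions were read from RefSeq (Release 6 assembly). A peak within 1 kb made a feature bound, and the highest-scoring such peak gave its score. Same-strand hairpins under 10 kb apart formed a cluster. The distance search was tested on simulated peaks.

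Every bound miRNA gene is accounted for, those in at least 2 lists or with the highest scores in full, beside 31 miRNA genes listed for their known roles, hosts, cluster neighbours, the genes nearest the 1 kb limit and the bound genes of the pathway and target lists. The miRNA genes and all lists were chosen with earlier results of these data known. Python 3.11.15, numpy 2.4.6, pandas 2.3.3 and matplotlib 3.10.9 were used. Alternatives were peaks that overlap the hairpin, 2 kb, an FDR of 0.1%, loci for genes, hosts for hairpins, and the nearest peak for the highest.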

Additional observations from a re-analysis of the deposited data

How the results depend on the processing

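Counts of bound miRNA genes moved with the distance that counts as bound. Against 17 genes for Psi, 15 for RNA Pol, 15 for Myc and 11 for at least 2 proteins at 1 kb, peaks overlapping the hairpin gave 10 for Psi, 7 for RNA Pol and 6 for at least 2 proteins, and peaks within 2 kb gave 25 for RNA Pol, 24 for Myc and 19 for at least 2 proteins. With an FDR of 0.1%, RNA Pol bound 9. With the host gene in place of the hairpin, Psi bound 49, RNA Pol 55 and Myc 62. All other counts stayed within 1.5 times the main value. The nearest peak in place of the highest-scoring one changed 0 of 47 scores. Only the score of *mir-9377* in the Myc list could have changed, as no other gene had more than 1 peak of a list within 1 kb. The genes just inside 1 kb were *mir-4965* (637 bp) and *mir-2281* (876 bp) for Psi, *mir-9384* (426 bp) and *mir-10* (730 bp) for RNA Pol, and *mir-9377* (490 bp) and *mir-13b-2* (868 bp) for Myc. Just outside lay *mir-bft* (1408 bp) and *mir-1004* (1477 bp) for Psi, *mir-9374* (1005 bp) and *mir-2b-2* (1156 bp) for RNA Pol, and *mir-996* (1172 bp) and *mir-2b-2* (1262 bp) for Myc. No paired analysis was possible because each list was called on the mean of 3 samples and holds no value per sample, and for the same reason no replicate could be left out. Depth cannot be read from the lists.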
